A study of Mus musculus with 3 samples.

Results

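The genes described here are the mouse genes with a Zfp number as their symbol that the bead arrays detected in pluripotent stem cells. A gene was included where its symbol in the array's probe table was Zfp followed by a number, other than Zfp42, and where a probe had a detection p-value under 0.01 on at least 1 of the 3 arrays. Of 258 such genes on the array, 152 met this rule, and 106 did not reach the detection threshold on any array. The whole array measured 16593 genes, of which 8224 were detected on at least 1 array. The genes were chosen by these detection p-values, so which arrays detected them is given below as a description only.

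Gene expression was profiled in 3 cultures with 1 array each. E3R cells were epiblast stem cells (EpiSCs) of the E3 line, of hybrid genetic background, after reversion, and they grew on gelatin in KSR medium. That medium held PD0325901 at 1 µM, which blocks MEK, CHIR99021 at 3 µM, which blocks GSK3, and 1000 U LIF, the cytokine that maintains embryonic stem cells. E3 cells were the unreverted EpiSCs of the same line, grown in KSR medium with 5 ng/ml FGF2 on inactivated CF1 mouse embryonic fibroblasts and taken off with collagenase IV. CGR8 cells were embryonic stem cells kept on gelatin in the same medium and inhibitors as E3R cells, and both of these cultures were harvested on the dish. All 3 cultures were untreated otherwise, each is 1 line and 1 culture, and no replicate check, test or p-value exists for any difference. Reversion, medium, substrate and harvest changed together between E3R and E3 cells, so their parts cannot be told apart. Between E3R and CGR8 cells the line and the history of the culture differed together.

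Most Zfp proteins bind DNA through repeated C2H2 zinc fingers. Many of those encoded in gene clusters carry a KRAB domain, through which they recruit the corepressor Trim28 (KAP1) and the histone methyltransferase Setdb1 to silence retroelements and, in a few cases, to keep imprints. Others act in pluripotency networks, in chromatin complexes or on RNA, and the shared symbol reflects the finger motif rather than a shared function.

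Signals are given as log2 of the background-corrected, quantile-normalized intensity. The standard error (SE) beside a value covers the beads of 1 probe on 1 array, so it says nothing of how repeat cultures, RNA preparations or arrays would vary. Detection reached 9994, 10791 and 9860 of 25697 probes on the E3R, E3 and CGR8 arrays. The labels were checked on marker genes. All 5 measured naive markers were higher in E3R than in E3 cells by 2-fold or more and all 6 primed epiblast markers were lower. Esrrb, a naive pluripotency factor, had a log2 signal of 11.85 in E3R cells, 5.41 in E3 cells and 11.77 in CGR8 cells. Of 12 fibroblast genes on the array, 1 was detected in E3R, 4 in E3 and 2 in CGR8 cells, and their summed raw intensity was 1024 in E3R, 1445 in E3 and 1268 in CGR8 cells. These sums are not normalized and include background, so they do not measure fibroblast RNA alone. The median raw intensity of all probes was 85.3 in E3R, 89.2 in E3 and 92.9 in CGR8 cells. Thy1, Dcn and Bgn were detected only in E3 cells, which grew on fibroblasts, and Pdgfra only in CGR8 cells. Col5a1 was detected in all 3, with 6.67 in E3R, 6.14 in E3 and 7.81 in CGR8 cells, whereas the defining collagens Col1a1, Col1a2 and Col3a1 were not detected in any culture. The part of feeder RNA in the Zfp values of E3 cells was not tested. A lower signal in a bulk culture cannot tell fewer cells of a kind from less RNA per cell.

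As a group the Zfp genes were dim. Their median log2 signal was 5.98 in E3R, 5.89 in E3 and 5.92 in CGR8 cells, against 6.93, 6.93 and 6.92 for all detected genes. The faintest signal that counted as detected on each array was 5.06, 4.87 and 5.10, so many members lay close to the floor. The median bead SE of the members was 0.11 on each array. E3R cells detected 117 of the 152, E3 cells 140 and CGR8 cells 111, and 99 were detected in all 3 cultures, which is 65.1% of the members against 74.2% of all detected genes. Of the 8224 genes detected on at least 1 array, 6964 were detected in E3R, 7448 in E3 and 6885 in CGR8 cells.

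Detection in E3 cells alone was the most frequent partial pattern, with 24 members (15.8%, against 10.8% of all detected genes). Another 12 were detected in E3R and E3 cells but not in CGR8 cells, 7.89% against 3.39% of all detected genes. Detection in E3R and CGR8 cells without E3 cells, the pattern of 5.05% of all detected genes, was seen for 1 member, Zfp951 (0.658%). A further 5 members were detected in E3R cells alone, 6 in CGR8 cells alone and 5 in E3 and CGR8 cells. The threshold falls in a dense range of signals. Zfp169 and Zfp398 lay just inside it, each with a lowest detection p-value of 0.00877 in CGR8 cells and raw intensities of 106.9 and 105.6. Just outside lay Zfp13 and Zfp560 in E3 cells and Zfp595 in E3R cells, each at 0.01128, with raw intensities of 94.9, 94.8 and 93.7.

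The first comparison asks how reverted cells differ from the epiblast stem cells they came from. A cluster gene of chromosome 4, Zfp985, and the ES cell factor Zfp296 stood furthest above their E3 levels, and Zfp608 and Zfp334 furthest below. A log2 difference could be formed for 139 members, and 17 of them (12.2%) were higher in E3R than in E3 cells by 2-fold or more, while 12.7% of all genes were. In the other direction 15 (10.8%) were lower by 2-fold or more, 1 of them as a bound, against 12.5% of all genes. Both shares lie close to those of all genes, and the median difference was −0.08 for the members and −0.02 for all genes. Of 111 members measured in both cultures, 29 (26.1%) differed by no more than 2 bead SE, against 25.4% of all genes. Where the brighter signal was log2 7 or more these shares were 10.7% of 56 members and 17.4% of all genes. Among the 57 members whose brighter signal was log2 7 or more, 12 (21.1%) were higher and 10 (17.5%) lower, beside 16.2% and 15.5% of all genes of that brightness.

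**Figure D1:**
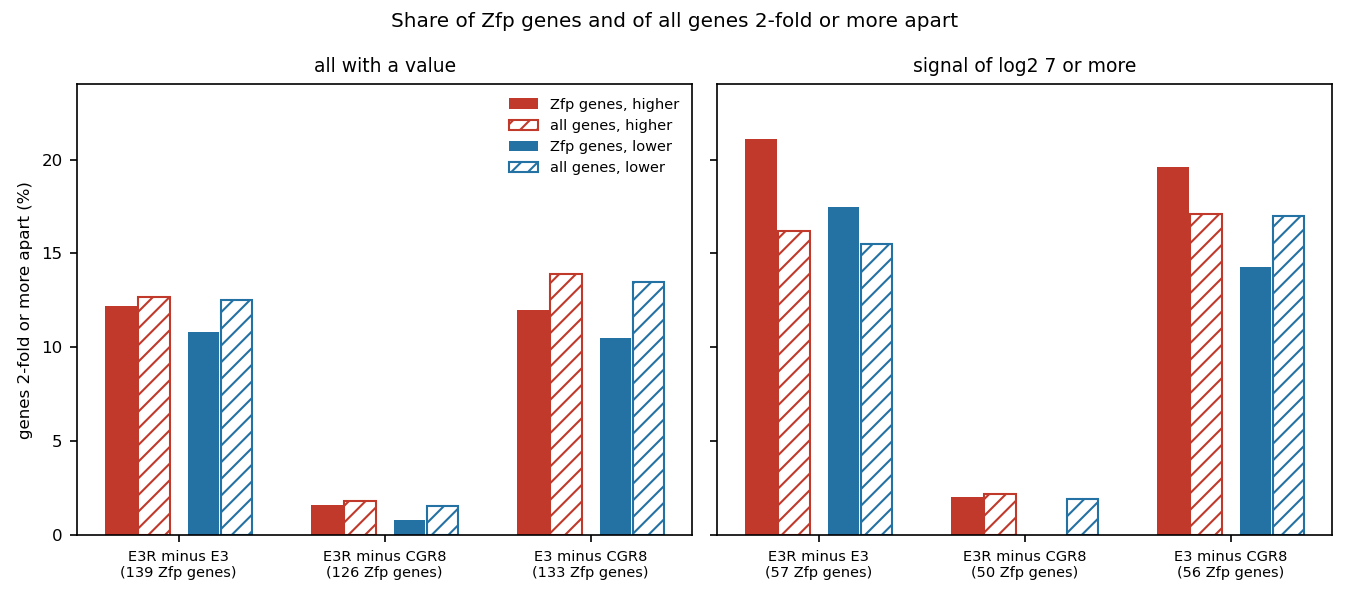
Share of genes 2-fold or more apart in each comparison (percent, bars from 0), for the Zfp genes with a value (filled) and for all genes (hatched), split into higher (red) and lower (blue) in the first-named culture. The left panel holds all genes with a value, the right panel those with a brighter signal of log2 7 or more. In the left panel each Zfp bar stands below the bar of all genes, for example 12.2% beside 12.7% for genes higher in E3R than in E3 cells.

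Zfp985 had the largest difference among the members. Its log2 signal was 9.02 ± 0.05 (bead SE) in E3R cells, 5.79 ± 0.11 in E3 cells and 9.51 ± 0.05 in CGR8 cells. It was thus bright in both cultures kept with inhibitors and LIF and near the floor in E3 cells, 9.39-fold higher in E3R than in E3 cells (log2 difference 3.23 ± 0.12). Its neighbour Zfp979, also known as Ssm1b and described as a KRAB protein that promotes strain-specific methylation of a transgene, had 7.44 ± 0.07 in E3R, 6.15 ± 0.07 in E3 and 7.87 ± 0.10 in CGR8 cells. That gene was 2.45-fold higher in E3R than in E3 cells. Zfp933, also in this cluster, had 5.40 in E3R and 4.87 in E3 cells, and was not detected in CGR8 cells. The genes of this cluster are near copies of one another, and the probe letters are not in the tables used here, so a probe may read more than 1 copy and the split between Zfp985 and Zfp979 is uncertain.

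The likeness of the pair extends to the sequence before their starts. The 250 bases upstream of each start are given from RefSeq (build GRCm38.p6), because both genes were high in the same cultures. They are chr4:147553027-147553276 on the plus strand for Zfp985 and chr4:147642509-147642758 on the minus strand for Zfp979. Capitals mark the 2 longest runs that both share within the last 150 bases, each 21 bases long. A global alignment of the stretches gave 216 identical positions, 18 mismatches and 32 gap positions, or 81.2% identity.
Zfp985: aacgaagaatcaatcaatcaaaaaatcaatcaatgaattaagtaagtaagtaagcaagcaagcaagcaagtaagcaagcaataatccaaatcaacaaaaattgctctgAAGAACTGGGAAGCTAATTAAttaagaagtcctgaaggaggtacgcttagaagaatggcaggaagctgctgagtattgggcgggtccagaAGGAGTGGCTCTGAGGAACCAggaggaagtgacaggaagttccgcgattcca
Zfp979: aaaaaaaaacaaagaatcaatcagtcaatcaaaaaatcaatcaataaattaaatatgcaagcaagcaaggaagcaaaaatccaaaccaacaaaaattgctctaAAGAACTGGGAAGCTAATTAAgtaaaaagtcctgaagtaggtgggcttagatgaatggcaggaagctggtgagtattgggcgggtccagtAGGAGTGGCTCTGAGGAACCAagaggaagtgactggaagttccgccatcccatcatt

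Zfp296 encodes a zinc finger protein that is enriched in ES cells, binds Klf4 and aids reprogramming. Its log2 signal was 8.74 ± 0.08 in E3R cells, 5.92 ± 0.10 in E3 cells and 8.68 ± 0.08 in CGR8 cells. The E3R and CGR8 values differed by 0.06 ± 0.11, within the bead error, and E3R cells stood 7.05-fold above E3 cells. Both of its probes were detected, and they gave log2 differences of 2.60 and 2.82. The 250 bases before its start, chr7:19577037-19577286 on the plus strand (RefSeq, GRCm38.p6), are shown because they hold an octamer, the letters ATGCAAAT that POU factors such as Oct4 are known to bind, here as the reverse complement in capitals. The octamer begins 111 bases before the start.
Zfp296: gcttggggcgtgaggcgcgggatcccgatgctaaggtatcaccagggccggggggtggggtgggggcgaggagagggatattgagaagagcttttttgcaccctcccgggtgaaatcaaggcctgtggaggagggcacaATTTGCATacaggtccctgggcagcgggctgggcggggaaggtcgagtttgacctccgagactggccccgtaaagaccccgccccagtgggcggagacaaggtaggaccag

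The other members high in E3R cells fall into bright and dim ones. Among the bright ones, Zfp64 had 9.67 in E3R, 8.04 in E3 and 9.39 in CGR8 cells, a 3.10-fold difference between E3R and E3 cells. Zfp655 stood at 9.34 in E3R, 7.78 in E3 and 9.26 in CGR8 cells (2.95-fold). Zfp574 was at 9.86 in E3R, 8.64 in E3 and 9.80 in CGR8 cells (2.33-fold). In all 3 of these genes E3R and CGR8 cells lay within 0.28 log2 units of each other and E3 cells lay below both.

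Among the dimmer ones, Zfp516, an activator of the brown fat gene Ucp1, had 7.04 in E3R, 5.02 in E3 and 6.95 in CGR8 cells. The E3 value is close to the floor of that array, and the difference was 4.06-fold (log2 2.02 ± 0.12). Zfp46 reached 7.25 in E3R, 5.46 in E3 and 6.46 in CGR8 cells, 3.46-fold higher in E3R than in E3 cells, with the CGR8 value between the other two. Zfp592, a partner of the chromatin reader Zmynd8, had 7.12 in E3R, 5.66 in E3 and 6.83 in CGR8 cells (2.75-fold). Zfp819, a KRAB protein that binds Trim28 and acts on retroelements in ES cells, had 6.68 in E3R and 5.00 in E3 cells and was not detected in CGR8 cells. It was therefore high in E3R cells alone, 3.21-fold above E3 cells. The remaining 7 members past 2-fold had log2 differences of 1.03 to 1.17.

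Zfp608 was the member furthest below its E3 level. It had a log2 signal of 7.98 ± 0.07 in E3 cells and was not detected in E3R cells (4.29) or CGR8 cells (4.41). Against the floor of the array it was at least 7.54-fold lower in E3R than in E3 cells. Zfp334 had 5.29 ± 0.18 in E3R cells and 7.85 ± 0.08 in E3 cells, and was not detected in CGR8 cells. It was 5.89-fold lower in E3R than in E3 cells (log2 difference −2.56 ± 0.19), and its mean over probes gave −1.22. Its upstream 250 bases, chr2:165388260-165388509 on the minus strand (RefSeq, GRCm38.p6), are given because they hold GCGCATGC, letters from the site of the factor NRF1, on both strands. Capitals mark the overlapping matches, which begin 49 bases before the start.
Zfp334: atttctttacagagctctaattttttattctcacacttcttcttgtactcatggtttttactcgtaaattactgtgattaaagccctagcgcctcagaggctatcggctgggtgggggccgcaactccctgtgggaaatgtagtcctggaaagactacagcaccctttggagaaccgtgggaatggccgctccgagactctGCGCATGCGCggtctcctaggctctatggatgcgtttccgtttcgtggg

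Zfp930 had 6.00 ± 0.13 in E3R, 7.83 ± 0.08 in E3 and 5.81 ± 0.11 in CGR8 cells, a 3.56-fold lower signal in E3R than in E3 cells. The E3R and CGR8 values lay within 0.19 of each other, far below the E3 value. Zfp36, or tristetraprolin, which carries CCCH rather than C2H2 fingers and speeds the decay of mRNAs with AU-rich elements, had 5.69 in E3R, 7.23 in E3 and 6.43 in CGR8 cells. It was 2.91-fold lower in E3R than in E3 cells, and CGR8 cells lay between them. Zfp317 depended on the probe. Its brightest probe gave 7.42 in E3R, 9.08 in E3 and 7.76 in CGR8 cells (3.16-fold lower in E3R cells), its 3 detected probes ranged from −1.66 to 0.47, and their mean difference was −0.44.

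Members with a smaller difference likewise had their highest signal in E3 cells. Zfp691 had 5.45 in E3R, 6.89 in E3 and 5.94 in CGR8 cells. Zfp101 had 5.50 in E3R, 6.89 in E3 and 5.39 in CGR8 cells. Zfp943 had 5.97 in E3R, 7.35 in E3 and 6.42 in CGR8 cells. In E3R cells Zfp691 was 2.71-fold, Zfp101 2.63-fold and Zfp943 2.61-fold lower than in E3 cells. Zfp524 was 2.34-fold and Zfp771 2.32-fold lower, with E3R signals of 5.44 and 5.54 near the floor. The mean over probes brought Zfp943 to −0.65 and Zfp771 to −0.81, under 2-fold. The other 5 lower members had log2 differences of −1.18 to −1.03.

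**Figure D2:**
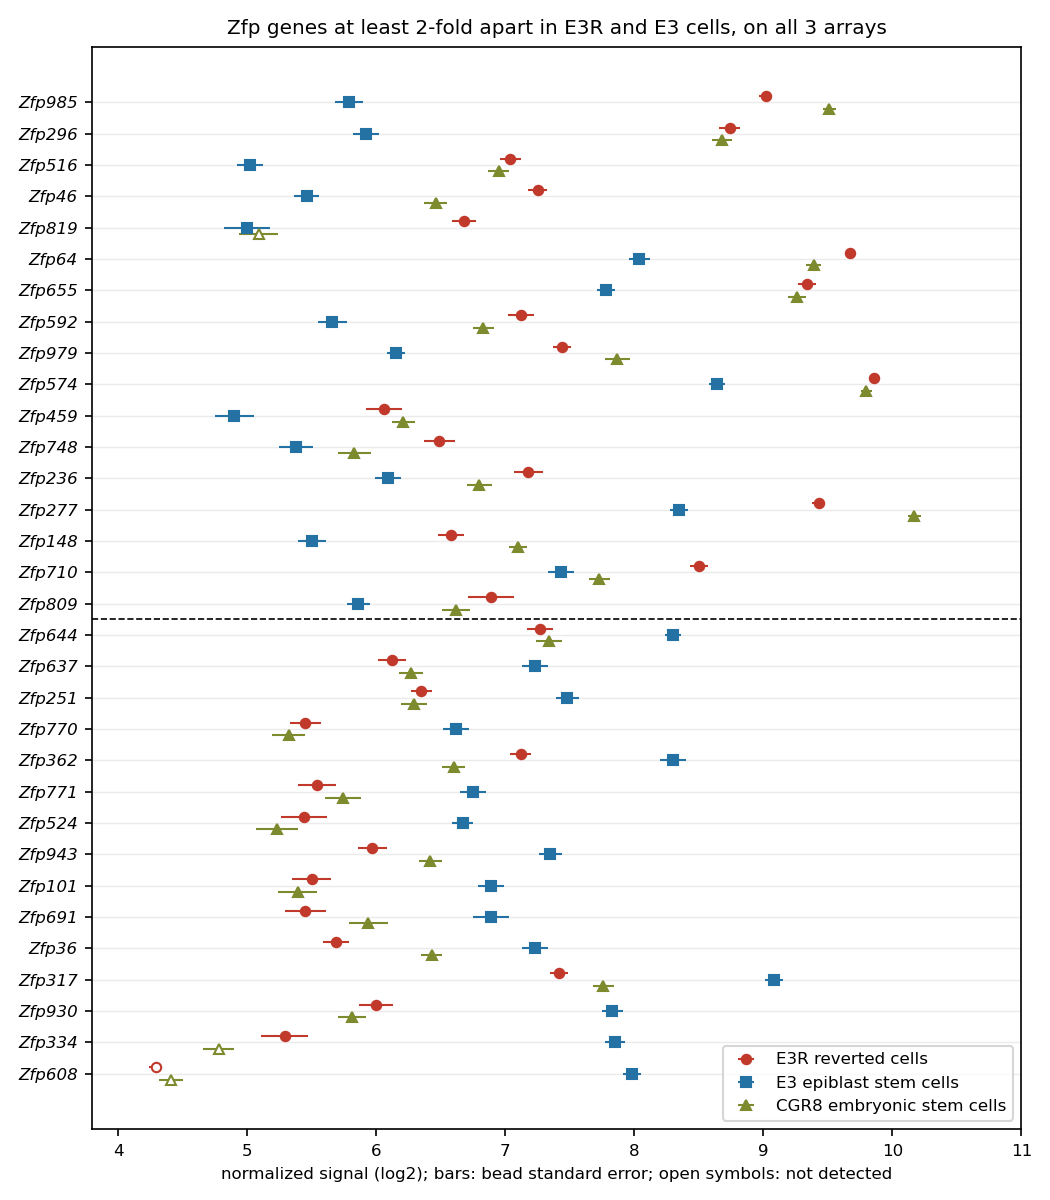
Normalized log2 signal (horizontal axis) of the 17 Zfp genes higher and the 15 lower by 2-fold or more in E3R than in E3 cells, on the E3R (red circles), E3 (blue squares) and CGR8 (green triangles) arrays. Bars are bead standard errors, open symbols were not detected, and the dashed line parts higher from lower genes. For Zfp985 and Zfp296 the E3R and CGR8 symbols lie far right of the E3 symbol, and for Zfp819 the E3R symbol alone lies to the right.

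The size of these folds rests on how the background was treated, since most of the genes are dim. Of the 32 members past 2-fold, 10 stayed past it without background correction and all 32 with the authors' processed values. Under all 7 alternatives that change values or detection, 6 higher members (Zfp296, Zfp516, Zfp574, Zfp64, Zfp655 and Zfp985) and 2 lower ones (Zfp334 and Zfp930) stayed past 2-fold. Of these, Zfp516 had a log2 difference of 1.0 without background correction and Zfp574 1.01 with a common median, both at the cut-off. Zfp46 fell just under it, at 0.99 without background correction. Zfp608 was past 2-fold under each that gave it a value, but being undetected in E3R cells it had none where detection in both cultures was required. Scaling the arrays to a common median shifted the median of all genes to −0.20 and turned the split into 11 higher (7.64%) and 20 lower members (13.9%), beside 9.48% and 17.0% of all genes, against 17 and 15 members with quantile normalization.

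Members known from pluripotency did not share a direction. Of 6 such genes on the array 3 were detected. Apart from Zfp296, Zfp281, which represses Nanog together with NuRD, had 7.27 in E3R, 7.74 in E3 and 7.26 in CGR8 cells. Zfp207, a spindle protein that also acts on splicing in ES cells, had 8.96 in E3R, 8.57 in E3 and 8.86 in CGR8 cells. Neither reached 2-fold in any comparison. Zfp217, Zfp706 and Zfp462 were not detected in any culture.

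Of 5 listed genes for imprints and retroelements on the array, 3 were detected and 2 of them were higher by 2-fold or more in E3R than in E3 cells, where 12.7% of all genes were. Besides Zfp819, this was Zfp809, which recruits Trim28 to the primer binding site of murine leukaemia proviruses. Zfp809 had 6.89 ± 0.18 in E3R, 5.86 ± 0.09 in E3 and 6.62 ± 0.11 in CGR8 cells, a 2.04-fold difference that sits at the threshold. It fell under 2-fold without background correction, at an offset of 50 and with a common median, and Zfp819 did so without background correction, so the count of 2 depends on these settings. Zfp638, which in human cells works with the HUSH complex on unintegrated retroviral DNA, had 6.15 in E3R, 6.94 in E3 and 6.36 in CGR8 cells, within 2-fold. Zfp445 and Zfp568 were not detected.

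Among genes of chromatin complexes, 7 of 9 were detected, with 3 higher and 1 lower in E3R than in E3 cells, against 12.7% and 12.5% of all genes. All 4 fell under 2-fold without background correction. Besides Zfp592, Zfp148, a factor of GC-rich promoters, was higher, with 6.58 in E3R, 5.50 in E3 and 7.10 in CGR8 cells. Zfp277, which works with Polycomb proteins, had 9.43 in E3R, 8.35 in E3 and 10.17 in CGR8 cells, but its other detected probe was above the threshold in E3 cells alone (5.16), and the mean over probes for E3R minus E3 was 0.22. The lower one was Zfp644, a partner of the methyltransferases G9a and GLP, with 7.27 in E3R, 8.30 in E3 and 7.34 in CGR8 cells (2.04-fold). Zfp410, an activator of Chd4, had 6.78 in E3R, 6.94 in E3 and 7.16 in CGR8 cells, and the SUMO ligase Zfp451 had 7.59 in E3R, 6.94 in E3 and 7.54 in CGR8 cells. Zfp335, needed for neural progenitors, was not detected in E3R cells and had 5.17 in E3 and 5.26 in CGR8 cells.

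Genes that act on RNA, ribosomes or protein turnover lay mostly within 2-fold. All 8 detected of 9 had a value, and Zfp36 alone passed 2-fold between E3R and E3 cells. Over all genes 12.7% were higher and 12.5% lower. Zfp598, the ubiquitin ligase of collided ribosomes, had 5.67 in E3R, 5.78 in E3 and 5.67 in CGR8 cells, the smallest range over the 3 cultures of the members detected in all of them. Zfp346, which binds double-stranded RNA, had 7.24 in E3R, 6.33 in E3 and 7.18 in CGR8 cells. Zfp91, a ubiquitin ligase, had 7.47 in E3R, 6.99 in E3 and 7.61 in CGR8 cells. Zfp593 was detected in E3R cells alone (5.43). The RNA-binding protein Zfp106 had 6.13 in E3R, 5.81 in E3 and 6.57 in CGR8 cells. Zfp326, a splicing factor, had 7.68 in E3R, 7.17 in E3 and 7.63 in CGR8 cells, and its mean over probes turned E3R minus E3 to −0.15.

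Lineage and signalling genes were mostly near or under the floor, with 5 of 12 detected in E3R, 9 in E3 and 4 in CGR8 cells. Over all 152 members the E3 array also detected the most, 140 against 117 in E3R and 111 in CGR8 cells. The same held for all 8224 detected genes, with 7448 in E3, 6964 in E3R and 6885 in CGR8 cells. The floor of the E3 array was the lowest, 4.87 against 5.06 in E3R and 5.10 in CGR8 cells. Zfp521 (5.86), Zfp467 (5.50), Zfp369 (5.53) and the epidermal factor Zfp750 (4.99) were detected in E3 cells alone. For none of these did the bound between E3R and E3 cells reach 2-fold, and Zfp750 had no value. Zfp219, a partner of Sox9, was brighter, with 7.93 in E3R, 8.07 in E3 and 7.45 in CGR8 cells. Zfp318, which acts on the IgD transcript in B cells, was counted with the RNA genes above and not in this list. It had 7.67 in E3R, 7.48 in E3 and 7.31 in CGR8 cells. Zfp423, a partner of Smad proteins, had 5.08 in E3R and 5.37 in E3 cells and was not detected in CGR8 cells. Zfp24 had 5.99 in E3R, 5.74 in E3 and 6.16 in CGR8 cells. Zfp185 had 5.76 in E3R, 5.88 in E3 and 6.44 in CGR8 cells. Zfp516, higher in E3R cells, was the 1 member of this list past 2-fold between E3R and E3 cells, of 8 with a value. Over all genes 12.7% were higher.

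The corepressors that KRAB proteins use were measured beside them. Trim28, chosen here after its values were seen, had a log2 signal of 12.31 in E3R, 12.36 in E3 and 12.21 in CGR8 cells. Setdb1, chosen likewise, had 7.68 in E3R, 7.87 in E3 and 7.61 in CGR8 cells. Both lay within 2-fold in every comparison. Of 10 Trim28-linked genes with a value, 3 were higher and 1 lower by 2-fold or more in E3R than in E3 cells, with a median of 0.07. Over all genes 12.7% were higher and 12.5% lower, and lists this short are too small to compare with those shares.

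Morc3 had 10.03 in E3R, 8.30 in E3 and 9.70 in CGR8 cells (3.33-fold), and Atf7ip, the partner of Setdb1, had 8.13 in E3R, 7.07 in E3 and 7.69 in CGR8 cells (2.08-fold). Atrx had 6.16 in E3R cells, was not detected in E3 cells and had 5.68 in CGR8 cells, at least 2.45-fold higher in E3R than in E3 cells. The modifier Sumo2 had 10.89 in E3R, 12.31 in E3 and 11.31 in CGR8 cells (2.68-fold lower). In the NuRD complex 1 of 8 measured genes was higher (Mta3, 2.33-fold) and 1 lower (Mta1, 2.73-fold), with a median of −0.03. Over all genes 12.7% were higher and 12.5% lower, and 8 genes are too few to compare with those shares. Morc2a, a HUSH partner, was 2.56-fold higher in E3R than in E3 cells.

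The second comparison asks how E3R cells differ from CGR8 cells when both are kept alike. It uses the E3R array a second time, so it is not independent of the first. Of 126 members with a value, 2 (1.59%) were higher in E3R than in CGR8 cells by 2-fold or more, beside 1.80% of all genes, and 1 (0.794%) was lower, beside 1.54%. The median difference was 0.01 for the members and for all genes. Of 100 members measured in both cultures, 51 (51.0%) differed by no more than 2 bead SE, beside 51.4% of all genes. With a signal of log2 7 or more, 1 of 50 members was higher and 0 were lower, beside 2.17% and 1.93% of all genes.

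By the brightest probe of each gene, Zfp869 was the member furthest above its CGR8 level. It had 7.01 ± 0.16 in E3R, 7.42 ± 0.10 in E3 and 5.10 ± 0.22 in CGR8 cells. Both cultures of the E3 line were bright and CGR8 cells sat at the floor, a 3.76-fold difference between E3R and CGR8 cells (log2 1.91 ± 0.27). Zfp819 was at least 2.98-fold higher in E3R than in CGR8 cells, where it was not detected. Zfp951 had 5.23 ± 0.13 in E3R cells, was not detected in E3 cells and had 6.34 ± 0.09 in CGR8 cells, 2.16-fold lower in E3R than in CGR8 cells. None of the 3 stayed past 2-fold under all 7 alternatives. Without background correction the log2 differences were 0.96 for Zfp869, at least 0.75 for Zfp819 and −0.50 for Zfp951.

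**Figure D3:**
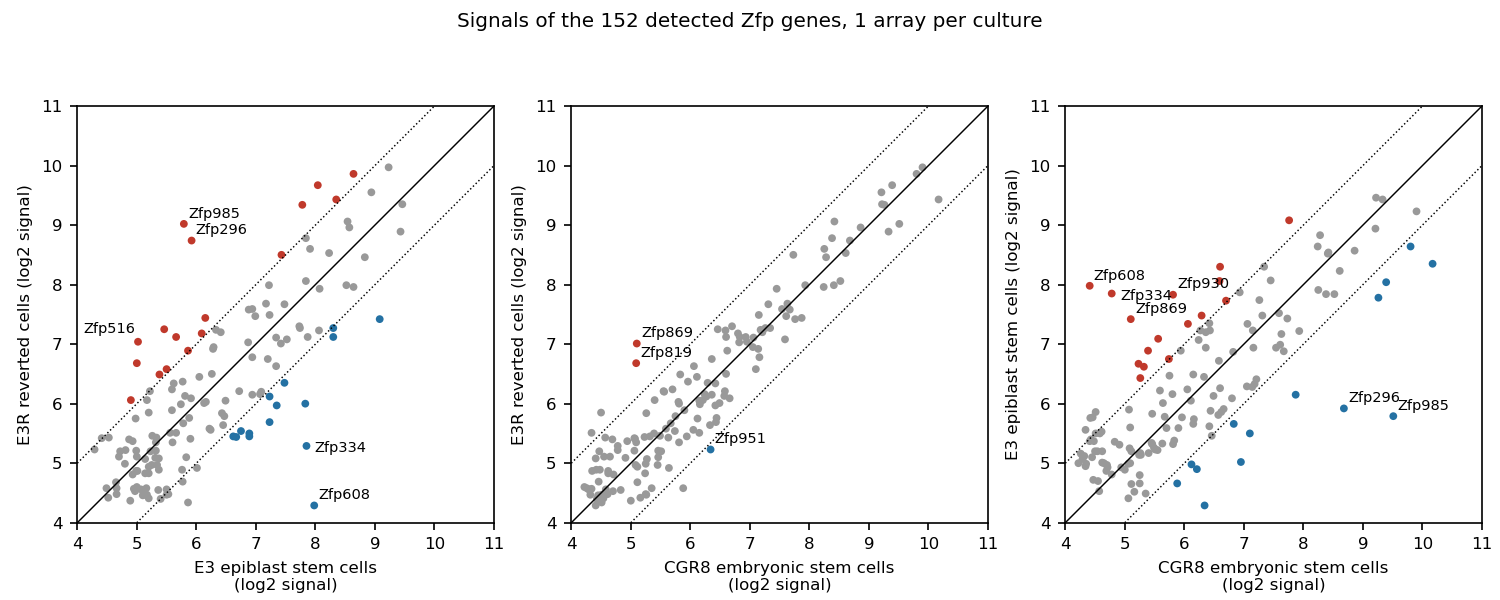
Normalized log2 signals of the 152 Zfp genes for E3R against E3, E3R against CGR8 and E3 against CGR8 cells (vertical against horizontal axis). The solid line marks equal signals and the dotted lines 2-fold, red and blue points were higher or lower by 2-fold or more, and grey points beyond a dotted line were undetected on the dimmer array with a bound under 2-fold. The middle panel has 3 coloured points, and the left panel 32.

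The last comparison, E3 against CGR8 cells, shares the E3 array with the first and the CGR8 array with the second. Of 133 members with a value, 16 (12.0%) were higher in E3 than in CGR8 cells by 2-fold or more, beside 13.9% of all genes, and 14 (10.5%) were lower, beside 13.5%. The median was 0.05 for the members and 0.01 for all genes. Of 104 members measured in both cultures, 31 (29.8%) differed by no more than 2 bead SE, beside 24.4% of all genes. Zfp608 was at least 7.34-fold and Zfp334 at least 6.71-fold higher in E3 than in CGR8 cells, which did not detect either gene. Zfp869 was 4.97-fold and Zfp930 4.07-fold higher in E3 cells. Zfp985 was 13.2-fold lower in E3 than in CGR8 cells, Zfp296 6.78-fold and Zfp516 3.82-fold lower. Under all 7 alternatives that change values or detection, 4 of the 16 higher and 5 of the 14 lower members stayed past 2-fold. Zfp985, Zfp296, Zfp869 and Zfp930 were among these. Zfp516 had −0.95 without background correction, and Zfp608 and Zfp334 had no value where detection in both cultures was required.

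Several members entered the largest differences of this comparison that were not among those of the first. Zfp277 was 3.54-fold lower in E3 than in CGR8 cells by its brightest probe, while its other probe was detected in E3 cells and not in CGR8 cells. Zfp148 was 3.03-fold lower. Zfp951 was at least 2.77-fold lower, being undetected in E3 cells. Zfp459 had 6.06 in E3R, 4.90 in E3 and 6.21 in CGR8 cells and was 2.49-fold lower in E3 than in CGR8 cells. Without background correction Zfp148 had −0.87, Zfp459 −0.55 and Zfp951 a bound of −0.62, all under 2-fold. The mean over probes gave −0.49 for Zfp277.

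On the higher side, Zfp362 had 7.12 in E3R, 8.30 in E3 and 6.60 in CGR8 cells (3.24-fold higher in E3 than in CGR8 cells). Zfp653 had 6.20 in E3R, 7.09 in E3 and 5.56 in CGR8 cells (2.90-fold). Zfp12 had 7.23 in E3R, 8.06 in E3 and 6.59 in CGR8 cells (2.77-fold). In these 3 genes the E3R signal lay between the other two, 0.52 to 0.64 above CGR8 cells. Zfp653 fell to 0.84 without background correction, while Zfp362 and Zfp12 stayed past 2-fold under all 7 alternatives.

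Over the 99 members detected in all cultures, the range of the log2 signal had a median of 0.78, against 0.73 over all genes so detected. A range under 0.5 was seen for 23 members (23.2%, against 30.5% of all genes) and a range of 1 or more for 36 (36.4%, against 32.9%). Zfp639, bright and among the steadiest and chosen after its values were seen, had 9.35 in E3R, 9.46 in E3 and 9.22 in CGR8 cells.

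The members were unevenly spread over the genome. Chromosome 7 held 38 of them (25.0%), while it held 8.11% of all detected genes, and chromosome 17 held 15 (9.87%, against 5.11%). Of the 33 on chromosome 7 with a value, 5 were higher and 3 lower by 2-fold or more in E3R than in E3 cells, with a median of 0.11. These counts lie close to the shares of all genes, 12.7% higher and 12.5% lower. Neighbouring members formed 10 runs of 3 or more with at most 5 protein-coding genes between them, which held 42 members, the largest with 7 on chromosome 7.

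The differences between E3R and E3 cells pointed both ways within some runs and one way within others. In the run of 7 on chromosome 7 they lay between −0.69 and 0.64, with 3 above and 4 below 0. In the chromosome 4 run, Zfp985, Zfp979 and Zfp933 differed by 3.23, 1.30 and 0.53 between E3R and E3 cells, and by −0.49, −0.43 and at least 0.30 between E3R and CGR8 cells. On chromosome 8, Zfp930, Zfp868 and Zfp869 had differences of −1.83, −0.48 and −0.40 for E3R minus E3, of which Zfp930 passed 2-fold. For E3R minus CGR8 they had 0.19, at least 0.31 and 1.91, of which Zfp869 passed 2-fold. The detected probes of Zfp868 ranged from −0.48 to 0.11 for E3R minus E3. On chromosome 17, Zfp870, Zfp472 and Zfp763 differed by 0.89, 0.79 and 0.78 between E3R and E3 cells, none past 2-fold, and their neighbour Zfp871 was detected in CGR8 cells alone. Members of 1 run can share sequence that a probe reads, so their values are not independent.

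**Figure D4:**
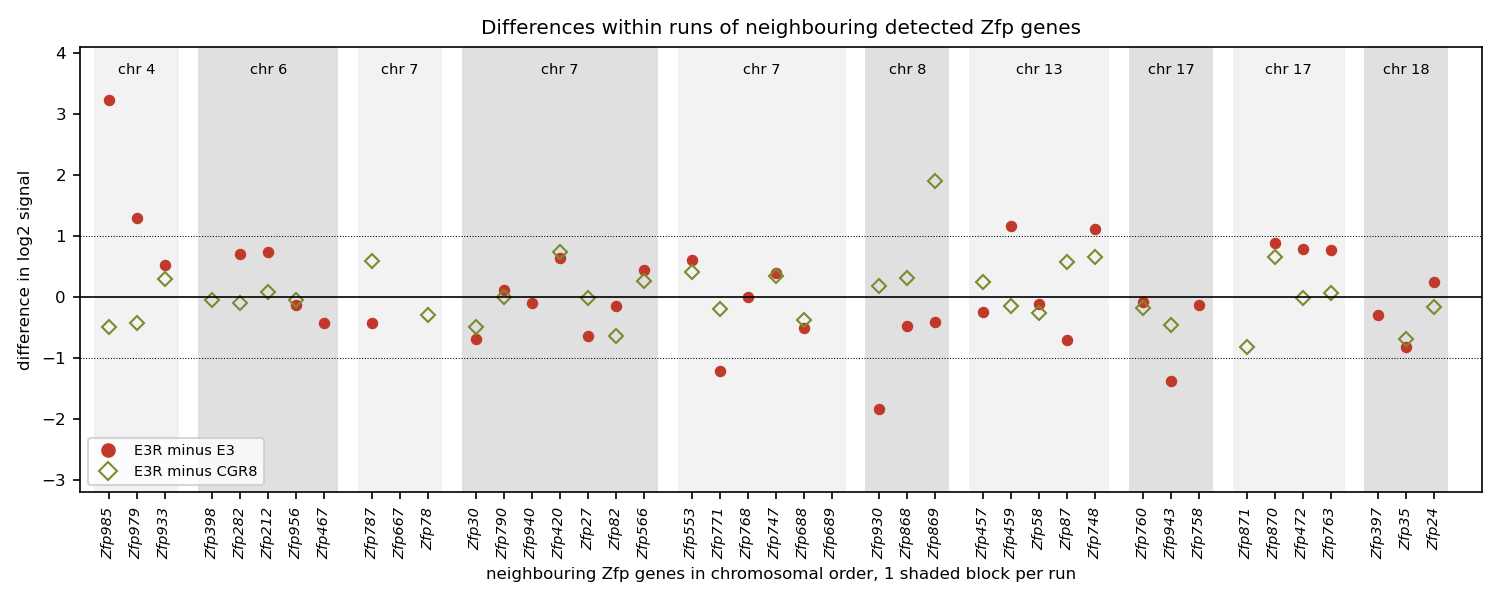
Difference in log2 signal (vertical axis) for E3R minus E3 (red circles) and E3R minus CGR8 (open green diamonds) in each of the 42 members that lie in runs of neighbouring Zfp genes, in chromosomal order with 1 shaded block per run. Differences with no value are left out, some points are bounds, and dotted lines mark 2-fold. The chromosome 4 run has all 3 circles above 0, up to 3.23, and the chromosome 8 run all 3 below 0, with 1 of them past 2-fold.

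RefSeq promoters (GRCm38.p6, 250 bases before to 50 after the start) matched 121 of the 152 members. All shares below are of genes. A gene with several such windows took its highest CpG count and counted for a motif if any window held it. The median number of CpG dinucleotides in the 300 bases was 18 for the members, against 22 for all detected genes, 13 for the undetected Zfp genes and 8 for all genes with a promoter. It was 16.5 for the 14 matched members higher in E3R than in E3 cells, 21 for the 10 lower ones and 18 for the 87 within 2-fold. Motifs were searched on both strands as exact letters, and a match describes the window only. The ETS core CCGGAA was found for 39.7% of the matched members, 32.2% of all detected genes and 16.7% of all genes with a promoter. It was in 3 of the 14 higher and in 6 of the 10 lower members, too few to compare. The GC box GGGCGG was found for 56.2% of the matched members, 70.7% of detected genes and 38.2% of all genes with a promoter.

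The octamer ATGCAAAT shown for Zfp296 was found for 5 of the 121 matched members (4.13%), against 1.59% of detected genes and 1.97% of all. The NRF1 letters GCGCATGC shown for Zfp334 were in 13 (10.7%), against 6.52% of detected genes and 3.05% of all. The E-box CACGTG was in 9.92%, against 12.1% of detected genes and 8.09% of all. The NRF1 letters overlap their own reverse complement and share ATGC with the octamer. The octamer of Zfp296 was the 1 octamer match among the 14 higher members, and the other 4 matches were among the 87 members within 2-fold.

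Probe choice bears on part of these values. Of the members, 98 had 1 probe and 54 had several, and 30 had at least 2 detected probes. Their probes spread by more than 1 log2 unit in 5 of them for E3R minus E3, in 2 for E3R minus CGR8 and in 6 for E3 minus CGR8. Zfp317, Zfp326 and Zfp41 had detected probes at least 0.5 from 0 on opposite sides in some comparison. The brightest probe of Zfp41, named here for that disagreement after its values were seen, gave 0.94 for E3R minus E3, and another gave −1.29.

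The widest disagreement lay against CGR8 cells, in Zfp330, and the probes of Zfp473 also parted there. Both genes were named for this after their values were seen. The brightest probe of Zfp330 had 8.89 in E3R, 9.43 in E3 and 9.33 in CGR8 cells. Its other probe had 9.01 in E3R and 9.49 in E3 cells but 4.28, not detected, in CGR8 cells. For E3R minus CGR8 these probes gave −0.45 and, against the floor, at least 3.90, so the choice of probe decides whether Zfp330 counts as within or past 2-fold. Zfp473 had the same pattern, with a brightest probe at 7.11 in E3R, 7.34 in E3 and 7.06 in CGR8 cells. Its other probe had 6.72 in E3R and 7.24 in E3 cells and was not detected in CGR8 cells (4.55), a difference of at least 1.61 for E3R minus CGR8. The 2 higher members counted against CGR8 cells leave out both genes, and why their probes part between the lines was not tested.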

How the data were processed

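Total RNA of 3 cultures (1 sample per group, 400 ng input, 12 h of in vitro transcription, Cy3, per the labels' protocols) was hybridized to Illumina bead arrays. Per the file headers, the authors deposited, for 25697 probes per array, an intensity summarised over beads, its bead standard error, and a detection p-value. BeadStudio (version not given) is the tool in the submitters' processing notes. No background had been subtracted from the deposited intensities. How the authors made their processed intensity values is not stated in the labels, and those values served as an alternative.

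Normalization of the raw intensities used neqc of limma 3.58.1 (R 4.3.3) with an offset of 16. It fits the background through the detection p-values, applies quantile normalization and returns log2 values. Python 3.11.15, pandas 2.3.3, numpy 2.4.6, Biopython 1.88 and matplotlib 3.10.9 did the rest. Gene names came from the array's probe table (23978 probes with 1 symbol) and were updated by gene identifier through a GRCm38.p6 gene table, which also gave neighbours; no Zfp symbol changed. A gene took its probe with the highest mean signal. A probe was detected at a p-value under 0.01. Where the dimmer array did not detect it, the higher of that array's floor and the probe's own signal was used, and the difference is given as "at least". Higher or lower means 2-fold or more. The arithmetic was tested on 1 simulated array with 200 probes changed 4-fold, which says nothing of false calls between cultures. With 1 array per group, the number of arrays limits precision and no test was made.

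Genes named are the 10 largest differences each way past 2-fold in each comparison, members of role lists where a sentence on the list needs them, and the members beside the detection threshold. Of the corepressor lists, the largest differences are named. The members, lists and motifs were chosen with earlier results of these data known. Protein sequences and probe sequences were not used here, so members were not split by domain. The alternatives tried were the authors' values, no background correction, a common median, an offset of 50, detection at 0.05 or on both arrays, 3-fold, the mean over probes, symbols with a letter suffix, a signal of log2 7 or more, and updated symbols.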

Additional observations from a re-analysis of the deposited data

How the results depend on the processing

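In E3R against E3 cells the 17 higher and 15 lower members became 6 and 4 without background correction, 10 and 7 at an offset of 50, and 6 and 4 at 3-fold. At an offset of 50 these were 7.19% and 5.04% of members, beside 8.93% and 8.09% of all genes. At 3-fold they were 4.32% and 2.88% of members, beside 5.55% and 4.36% of all genes. There were 11 higher members (20 lower) after scaling to a common median and 23 lower ones (25 higher) with the authors' processed values. With the authors' values 18.1% of members were higher and 16.7% lower, beside 17.5% and 16.2% of all genes. The median of −0.08 became 0.10 for members detected on both arrays and 0.19 at a signal of log2 7 or more. Over all genes these medians were −0.01 and −0.05. In E3R against CGR8 cells the 2 higher members became 0 without background correction, 4 with the mean over probes, and 1 with an offset of 50, detection on both arrays, 3-fold or a signal of log2 7 or more. The 4 were 3.36% of members, beside 1.52% of all genes. In the settings with 1, it was 0.794% to 2.0% of members, beside 0.357% to 2.17% of all genes. Without background correction 0.522% of all genes were higher. The 1 lower member became 3 with the authors' values, 2 at detection under 0.05, and 0 at 3-fold, at a signal of log2 7 or more, with an offset of 50 or without background correction. The 3 were 2.38% of members and the 2 were 1.32%, beside 2.9% and 1.45% of all genes. In the settings with 0, between 0.329% and 1.93% of all genes were lower. In E3 against CGR8 cells the 16 higher and 14 lower members became 7 and 7 without background correction, 9 and 9 at an offset of 50, and 5 and 6 at 3-fold. In that order the shares of members were 5.26% and 5.26%, 6.77% and 6.77%, and 3.76% and 4.51%. Over all genes they were 7.01% and 7.48%, 9.05% and 9.42%, and 5.37% and 6.11%. There were 25 higher with the authors' values (18.8%, beside 17.4% of all genes). At a signal of log2 7 or more 8 were lower (14.3%, beside 17.0% of all genes). The median of 0.05 became −0.12 for members detected on both arrays, where that of all genes was −0.02. Raising the offset or leaving the background in shrinks folds by construction, and a higher threshold or fewer genes lowers counts likewise; for the other shifts the cause was not tested. Without background correction 4.32% of members were higher and 2.88% lower in E3R than in E3 cells, beside 7.18% and 6.11% of all genes. Scaling to a common median moved the median of all genes to −0.15 for E3R minus CGR8 and 0.07 for E3 minus CGR8. For 51 members recomputed singly under the 6 alternatives that change values or the detection p-value, 0 of 312 values of differences past 2-fold took the other sign. Among differences under 2-fold 16 of 540 values did, from 14 of 91 differences, for example Zfp326 (0.51, and −0.15 as mean over probes) and Zfp410 (−0.15, and 0.20) for E3R minus E3. The alternatives reuse the same 3 arrays, and many of these members were named for their large differences. A large difference could hardly change sign, so the 0 of 312 says nothing of how repeat cultures would behave. No paired analysis was possible because each group had 1 array. Dim signals limit what can be seen: a gene near the floor on an array has a compressed fold, and 106 Zfp genes had no detected signal.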
